A study of Mus musculus with 6 samples.

Results

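The Ikaros family genes Ikzf1, Ikzf2 and Ikzf3 encode the zinc finger transcription factors Ikaros, Helios and Aiolos. They were taken by symbol from a table of UMI counts, where a UMI marks 1 captured RNA molecule, and so make up 3 of the 14597 genes in it. Ikzf4 and Ikzf5, which encode Eos and Pegasus, complete the family of 5 and are given for comparison. The table holds 12818 single cells. The cells were TCRβ+ T cells sorted 16 days after implantation from subcutaneous tumors of B16-F10, a mouse melanoma line, in Foxp3-EGFP-DTR mice. All of these mice carry the diphtheria toxin receptor and EGFP under control of the Foxp3 gene, so diphtheria toxin (DTx) is meant to deplete the cells that express Foxp3. The study had 3 mice given PBS, the vehicle, and 3 given DTx, each injected on day 7 and again on days 9, 11 and 13 after implantation. Each cell name ends in a library number from 1 to 6, but no label ties these numbers to a mouse. Values are therefore given for single libraries or for all cells together, no library counts as a replicate, and neither a comparison of PBS with DTx nor a p-value was computed. All intervals are 95% intervals for counting error only. They leave out differences between mice and treat the UMIs of 1 cell as independent, so the number of cells behind a value is given where few cells carried it.

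Ikaros proteins bind DNA through a cluster of C2H2 zinc fingers and pair with one another through further fingers near the C-terminus. They recruit repressive chromatin complexes, chiefly NuRD, and also Sin3 and CtBP. Ikaros is present throughout the T cell lineage. Aiolos is associated with mature and differentiated lymphocytes, where it restrains Il2. Helios is best known from regulatory T (Treg) cells, in which it helps to keep the Treg program stable, and it is also found in some CD4+ and CD8+ T cells that lack Foxp3. In human cells, thalidomide analogs bring the second finger of Ikaros and Aiolos to the ubiquitin ligase subunit cereblon, after which both factors are degraded.

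In GRCm38, Ikzf1 (ENSMUSG00000018654.17) spans chromosome 11 from 11685003 to 11772926 (plus strand). Ikzf3 (ENSMUSG00000018168.8) spans 98464902 to 98546031 of the same chromosome (minus strand). Ikzf2 (ENSMUSG00000025997.13) spans chromosome 1 from 69531214 to 69687245 (minus strand). The coding sequences of fingers 2 and 3 are shown because they lie in the DNA-binding part and show how alike the members are. Capitals mark the codons of the cysteines and histidines that hold the zinc, and each stretch has 147 bases in the sense of the transcript, 5′ to 3′.
Ikzf1: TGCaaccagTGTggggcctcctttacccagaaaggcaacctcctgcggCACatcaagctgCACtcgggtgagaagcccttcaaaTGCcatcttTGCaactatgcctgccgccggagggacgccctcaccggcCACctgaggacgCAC
Ikzf2: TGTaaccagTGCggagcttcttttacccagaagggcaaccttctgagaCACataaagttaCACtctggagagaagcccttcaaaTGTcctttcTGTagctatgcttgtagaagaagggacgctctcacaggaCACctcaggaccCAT
Ikzf3: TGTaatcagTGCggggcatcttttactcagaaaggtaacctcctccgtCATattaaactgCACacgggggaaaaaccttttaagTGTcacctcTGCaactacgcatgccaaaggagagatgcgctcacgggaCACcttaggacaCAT
Of the 49 residues that each stretch encodes, Ikzf1 shares 46 with Ikzf2 and 47 with Ikzf3, and Ikzf2 shares 44 with Ikzf3. The bases are less alike, with 78.2% identity between Ikzf1 and Ikzf2, 76.2% between Ikzf1 and Ikzf3 and 72.8% between Ikzf2 and Ikzf3. Over the whole transcripts compared, the longest identical run was 17 bases for Ikzf1 and Ikzf2, 26 for Ikzf1 and Ikzf3, and 20 for Ikzf2 and Ikzf3. Of the annotated genes that overlap them, 2 at Ikzf1 and 3 at Ikzf2 were in the table, each with 6 to 12 UMIs, against 2702 UMIs for Ikzf1 and 1682 for Ikzf2.

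Cells were assigned by the transcripts seen in them. The CD4+ Tconv gate took the 1205 cells in which Cd4 was seen without Foxp3, Cd8a or Cd8b1, the CD8+ gate took the 4497 cells in which Cd8a or Cd8b1 was seen without Cd4 or Foxp3, and the Foxp3+ gate took the 97 cells in which Foxp3 was seen without Cd8a or Cd8b1. No such transcript was seen in 6838 cells, and a further 168 held both Cd4 and Cd8 transcripts and were kept out of the gates. The median depth per cell ran from 610 to 2499.5 UMIs over the libraries, and naive-like clusters held from 0.226% to 86.5% of their cells, so the gates were compared within libraries. The Foxp3+ cells were 49, 30 and 17 in libraries 1, 2 and 3, and 1 in library 6. The 6 Treg markers, which include Foxp3 itself, summed to 21.3 UMIs per 10000 in Foxp3+ cells against 7.86 in CD4+ Tconv cells and 4.05 in CD8+ cells. Myeloid, B cell, stromal and melanoma markers each summed to at most 0.297 UMIs per 10000 in every gate and library, with Tyrp1 of the melanoma list at 0 in all gates. Lyz2 and Ms4a1 were not analysed here.

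Ikzf1 was the most evenly distributed member. It had 2702 UMIs in 2235 cells, at most 5 in a cell. In CD4+ Tconv cells its level in libraries 1 to 6 was 1.23, 1.29, 0.906, 1.22, 1.28 and 0.832 UMIs per 10000 UMIs of the same cells, and 1.18 (1.06 to 1.32) in the pool. Libraries 3 and 6 were lowest, but the highest level was 1.55 times the lowest with an interval of 0.842 to 2.85, which includes 1. In CD8+ cells the level was 1.27, 1.52, 1.38, 1.58, 1.29 and 0.931 UMIs per 10000, and 1.33 (1.26 to 1.41) in the pool. Here library 6 stood below the others, and library 4 was 1.70 times (1.42 to 2.04) above it. In Foxp3+ cells the Ikzf1 level was 1.12 in library 1, 0 in the 30 cells of library 2 and 0.891 in library 3, on 12, 0 and 3 UMIs.

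Ikzf3 had 2060 UMIs in 1642 cells, at most 8 in a cell. Its level in CD4+ Tconv cells was 1.73, 0.449, 1.74, 0.491, 0.558 and 0.266 UMIs per 10000 in libraries 1 to 6, and 0.659 (0.564 to 0.765) in the pool. Libraries 1 and 3 were far above the rest. In the order of the levels the step from library 5 to library 1 was 3.10 (1.98 to 4.85), and no other pair of neighbours differed beyond counting error. In CD8+ cells the Ikzf3 level was 1.42, 0.633, 1.72, 1.20, 1.01 and 1.03, and 1.09 (1.03 to 1.16) in the pool. Library 2 was lowest, by a factor of 1.59 (1.23 to 2.06) from its neighbour, library 5. In Foxp3+ cells of libraries 1, 2 and 3 the level was 1.96, 0.565 and 0.594, on 21, 3 and 2 UMIs.

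Ikzf2 had 1682 UMIs in 1144 cells, or 8.92% of all cells, with 2 or more UMIs in 328 cells and at most 9 in a cell. It was highest by far in Foxp3+ cells, at 6.26 UMIs per 10000 in library 1, 6.03 in library 2 and 3.86 in library 3, and 5.73 (4.72 to 6.89) in the pool. In CD4+ Tconv cells the level was 1.86, 0.449, 1.66, 0.627, 0.521 and 0.433 in libraries 1 to 6, and 0.724 (0.624 to 0.835) in the pool. As with Ikzf3, libraries 1 and 3 stood above the other 4, and the step from library 4 to library 3 was 2.65 (1.55 to 4.38). In CD8+ cells the Ikzf2 level was 0.755, 0.236, 0.984, 0.639, 0.619 and 0.575, and 0.599 (0.552 to 0.650) in the pool. Library 2, the one with most naive-like cells, was lowest, and library 6 exceeded it by a factor of 2.43 (1.62 to 3.75). Although Foxp3+ cells had the highest level, they were few and held 6.66% of the Ikzf2 UMIs. CD4+ Tconv cells held 11.2%, CD8+ cells 35.2% and cells without a gating transcript 42.9%.

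**Figure D1:**
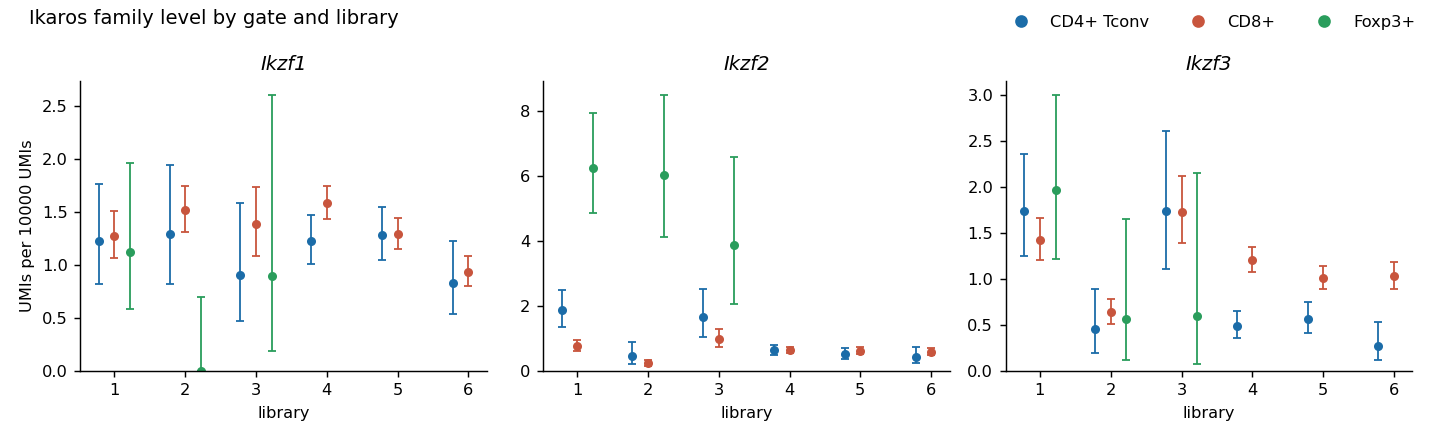
Level of Ikzf1, Ikzf2 and Ikzf3 in UMIs per 10000 UMIs (vertical axes, each from 0) by library (horizontal axes) in CD4+ Tconv, CD8+ and Foxp3+ cells, for gates with at least 10 cells. Points are summed counts and bars exact Poisson 95% intervals. Foxp3+ cells lie between 3.86 and 6.26 for Ikzf2, above all CD4+ Tconv and CD8+ values.

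Which members set Treg cells apart was asked within libraries, with CD4+ Tconv cells as the reference. Ikzf2 did so in each of the 3 libraries that held both. The Foxp3+ cells had 112 Ikzf2 UMIs in 52 cells, where the Ikzf2 share of UMIs in CD4+ Tconv cells predicted 27.9, a ratio of 4.01 (2.97 to 5.40). The ratio was 3.37 in library 1, 13.4 in library 2 and 2.33 in library 3, and each interval lay above 1. Clusters were not matched. Of the 151 CD4+ Tconv cells of library 2, 127 lay in naive-like clusters, where their Ikzf2 level was 0.0735 on 1 UMI. In libraries 1, 2 and 3 the 39, 3 and 17 CD4+ Tconv cells of the Th2-like cluster had levels of 3.24, 2.04 and 4.98. Foxp3+ cells of all clusters had 6.26, 6.03 and 3.86. The part of cluster make-up in the ratios was not tested. Ikzf1 had a ratio of 0.691 (0.398 to 1.20) and Ikzf3 of 0.970 (0.617 to 1.52), and both pooled intervals included 1. For Ikzf1 the ratio was below 1 in 3 of 3 libraries, at 0.915, 0 and 0.984, and the interval of library 2 (0 to 0.584) lay below 1. The pooled Ikzf1 ratio was 0.398 without library 1. Matching and gating mattered, since without matching by library the ratio was 7.91 for Ikzf2 and 2.02 for Ikzf3. In gates of 2 UMIs it was 7.96 and 0.241, so Ikzf3 fell on either side of 1. Of 5194 genes tested here, with at least 20 UMIs over both gates, 16.8% had a ratio of at least 1.5 and 15.6% a ratio of at most 1/1.5, so a ratio past these limits was common. Against CD8+ cells of the same library the Ikzf2 ratio was 8.78 (6.88 to 11.2), with 8.29, 25.5 and 3.92 in the 3 libraries. That of Ikzf1 was 0.604 (0.366 to 0.996) and below 1 in 3 of 3 libraries. Ikzf4, which encodes a factor that acts with Foxp3, had 6 UMIs in Foxp3+ cells, with a ratio of 1.98 (0.666 to 5.92) to CD4+ Tconv cells and 10.8 (3.64 to 32.0) to CD8+ cells.

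CD8+ and CD4+ Tconv cells of the same library differed in another member. Ikzf3 was higher in CD8+ cells, with 1081 UMIs against 651 expected from CD4+ Tconv cells and a ratio of 1.66 (1.40 to 1.96). By library the Ikzf3 ratio was 0.817, 1.41, 0.993, 2.45, 1.80 and 3.86. Libraries 4, 5 and 6 had intervals above 1, and those of libraries 1, 2 and 3 included 1. Without library 1 the pooled ratio was 1.99. The Ikzf1 ratio was 1.15 (1.01 to 1.32) and above 1 in 6 of 6 libraries, from 1.01 to 1.53, although only the interval of library 4 lay above 1. For Ikzf2 the pooled ratio of 0.824 (0.695 to 0.977) covered unlike libraries. Its values were 0.406, 0.526 and 0.593 in libraries 1, 2 and 3, of which only the first had an interval below 1, and 1.02, 1.19 and 1.33 in libraries 4, 5 and 6. Without library 1 it was 0.982. Ikzf4 was lower in CD8+ cells, with 26 UMIs against 70.0 expected and a ratio of 0.371 (0.198 to 0.699), and Ikzf5 had a ratio of 1.20 (0.836 to 1.71). Of 10381 genes tested, 8.96% had a ratio of at least 1.5 and 10.9% a ratio of at most 1/1.5.

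**Figure D2:**
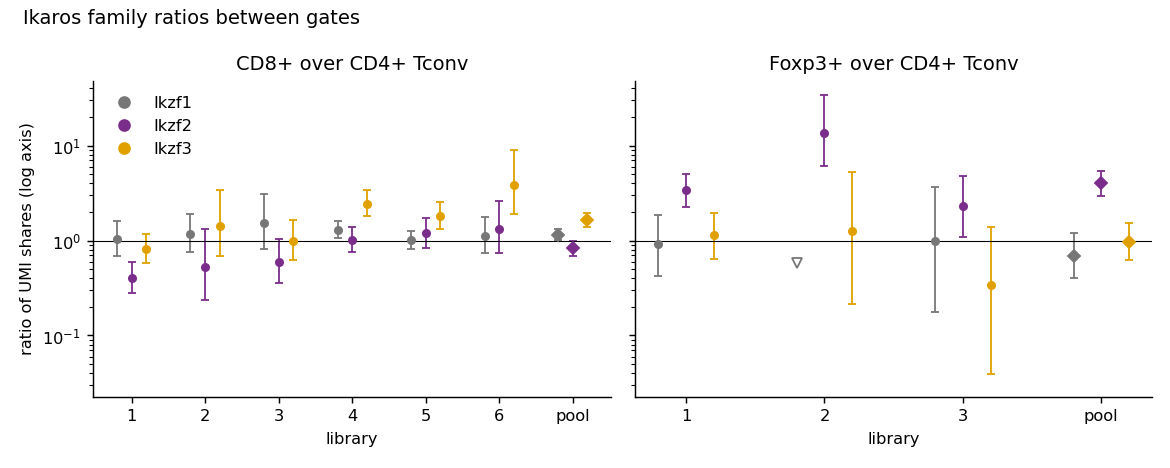
Ratio of the UMI share of each member between gates of the same library, on log axes, with CD8+ over CD4+ Tconv cells on the left and Foxp3+ over CD4+ Tconv cells on the right. Circles are single libraries, diamonds the pool, bars 95% counting intervals, and the open triangle the upper limit where no Ikzf1 UMI was seen. Ikzf2 lies above 1 in all 3 libraries on the right, up to 13.4, and on both sides of 1 on the left.

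Because Helios is known from Treg cells, the share of Foxp3-negative cells with an Ikzf2 UMI was compared with that of naive-like cells, which served as the low reference. The share was 10.5% (8.86 to 12.4) of CD4+ Tconv cells, 9.01% (8.19 to 9.88) of CD8+ cells and 53.6% (43.2 to 63.8) of Foxp3+ cells. In naive-like clusters it was 1.44%, or 59 of 4099 cells. The median depth was 1622 UMIs in CD4+ Tconv, 1708 in CD8+, 1532 in Foxp3+ and 875 in naive-like cells, so each cell was also thinned to 1000 UMIs and shallower cells were left out. The shares were then 5.71% of 910 CD4+ Tconv cells, 4.58% of 3735 CD8+ cells, 35.5% of 76 Foxp3+ cells and 1.27% of 1581 naive-like cells. This left out 295, 762, 21 and 2518 cells in the same order. In the pool the order of the gates was kept, but nearly all naive-like cells came from libraries 1, 2 and 3, and the libraries did not all follow it. In library 2 the shares at 1000 UMIs were 2.53% (0.308 to 8.85) of CD4+ Tconv, 1.72% (0.894 to 2.99) of CD8+ and 1.11% (0.608 to 1.86) of naive-like cells, with overlapping intervals. In libraries 5 and 6 the CD8+ share (5.21% and 4.97%) was above the CD4+ Tconv share (4.69% and 3.03%), with overlapping intervals. In library 3 an Ikzf2 UMI was seen in 8 of 40 CD4+ Tconv cells and in 1 of 10 Foxp3+ cells, again with overlapping intervals. These orders depended on the thinning. At 500 UMIs library 3 had 6 of 92 CD4+ Tconv and 6 of 15 Foxp3+ cells with Ikzf2. The CD4+ Tconv and CD8+ shares were then 2.73% and 2.65% in library 5, and 1.61% and 2.58% in library 6. Within the CD8+ gate, 14 of 1182 naive-like cells (1.18%) had an Ikzf2 UMI, all of them in library 2. The share was 7.89% of CD8+ cells in the CD8 effector-like cluster and 19.0% in the proliferating-like cluster. These clusters differed in depth, with medians of 1191.5, 1821 and 3776.5 UMIs, and at 1000 UMIs the first pair stood at 1.02% and 3.87%. In library 2, 0 of the 44 CD8+ cells in the effector-like cluster had an Ikzf2 UMI. This allows a share with a UMI of up to 6.82% at 3 counts of the total, with an exact upper bound of 8.04%. That bound includes the pooled 7.89%, so library 2 was not shown to differ. For the other members at 1000 UMIs, Ikzf1 was seen in 11.4% of CD4+ Tconv, 11.5% of CD8+ and 13.6% of naive-like cells. Ikzf3 was seen in 5.82%, 10.3% and 4.81%.

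The clusters, built without the 3 members among the variable genes, sorted the members differently. Ikzf1 varied less than the other members over clusters 0 to 6. Its level ran from 1.12 to 1.28 UMIs per 10000 in clusters 0, 2, 3, 4, 5 and 6 and was 1.55 in the naive-like cluster 1. Neighbours in order among the former did not differ beyond counting error, but the ends of their range were not compared. Ikzf2 was lowest in the naive-like clusters 1 and 2, at 0.161 and 0.238. It was higher in the unnamed cluster 5 (0.600), the CD8 effector-like cluster 0 (0.700) and the proliferating-like cluster 6 (0.822), and highest of these in the Th2-like cluster 4 (1.16) and the unnamed cluster 3 (1.27), which was led by Pxdc1, Sdc1 and Il17a among others. Of these steps, those from cluster 1 to 2, from 5 to 0 and from 4 to 3 were within counting error. Ikzf3 was lowest in clusters 1, 5 and 2, at 0.522, 0.543 and 0.558, which could not be told apart, and reached 0.863 in cluster 6, 1.004 in cluster 4, 1.22 in cluster 0 and 1.52 in cluster 3. All 3 members were highest in the unnamed cluster 7, at 5.33 for Ikzf1, 4.72 for Ikzf2 and 3.15 for Ikzf3. This cluster held 104 cells, with ribosomal protein genes at 4.52% of UMIs against 34.7% in all cells and mitochondrial genes at 2.15% against 0.921%. The part of these shares in the levels was not tested.

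Pooled cluster levels hid a wide spread of Ikzf2 over libraries. In the Th2-like cluster the Ikzf2 level was 3.12, 3.52, 3.10, 0.583, 0.657 and 0.750 UMIs per 10000 in libraries 1 to 6, on 253, 31, 117, 464, 476 and 323 cells. Libraries 1, 2 and 3 were thus far above libraries 4, 5 and 6, and their intervals did not overlap. Libraries 1, 2 and 3 also held all but 1 of the Foxp3+ cells, 44 of which lay in this cluster. The same order was seen with Foxp3+ cells left out, since CD4+ Tconv cells of the cluster had 3.24, 2.04 and 4.98 in libraries 1, 2 and 3, where there were 39, 3 and 17 cells. They had 0.610, 0.400 and 0.637 in libraries 4, 5 and 6, where there were 163, 128 and 68 cells. A Treg cell in which no Foxp3 transcript was captured would fall into the CD4+ Tconv gate, and the part of such cells was not tested. In the proliferating-like cluster the level was 2.13, 1.87 and 1.92 in libraries 1, 2 and 3 and 0.764, 0.520 and 0.728 in libraries 4, 5 and 6. CD8+ cells of the effector-like cluster showed no such order, with 0.517, 0, 0.898, 0.583, 0.616 and 0.388. Whether treatment, cell make-up or the library itself lies behind this cannot be told apart.

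**Figure D3:**
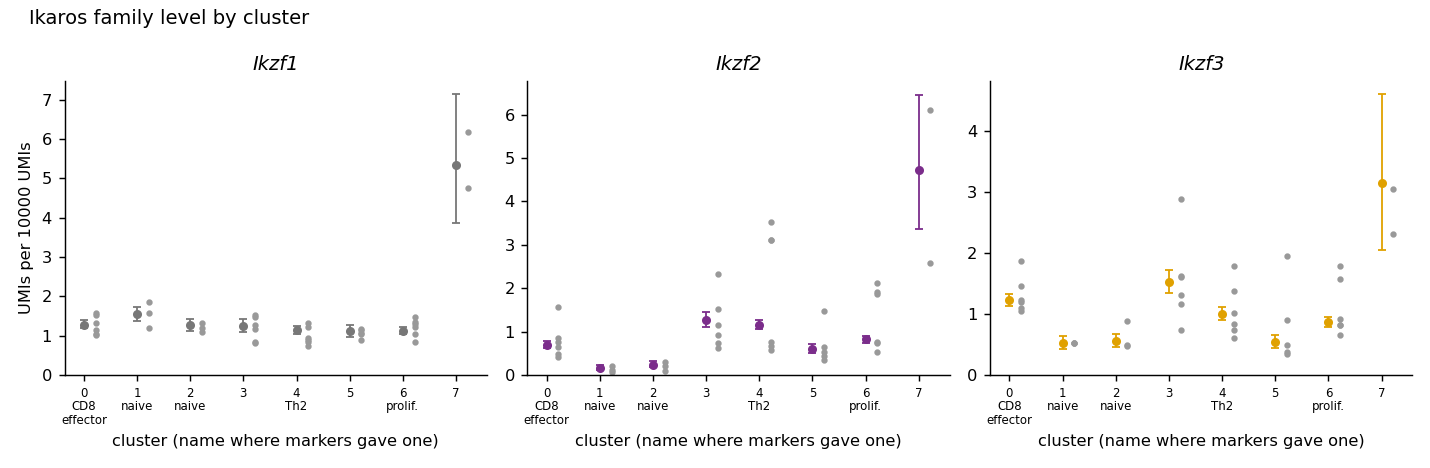
Level of each member in UMIs per 10000 UMIs (vertical axes, each from 0) in clusters 0 to 7 (horizontal axes). Colored points are pooled counts with exact Poisson 95% intervals, and gray points single libraries with at least 30 cells in the cluster. Ikzf1 lies between 1.12 and 1.55 outside cluster 7, Ikzf2 and Ikzf3 are low in the naive-like clusters, and single libraries spread from 0.583 to 3.52 for Ikzf2 in the Th2-like cluster.

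Genes that work with the family were followed between the same gates. In the NuRD list, 4 of 13 members were past the ratio of 1.5 in Foxp3+ over CD4+ Tconv cells, namely the ATPase Chd4 (1.53), Mta1 (1.68), Mbd2 (1.51) and Rbbp4 (1.54). The deacetylases Hdac1 and Hdac2 were past the limit downward, at 0.625 and 0.475. Beside the 16.8% and 15.6% of all genes past these limits, the 2 lower of 13 are near the background. Among the 4 higher, Chd4, Mbd2 and Rbbp4 lay close to the limit of 1.5. No interval is given for them, so the 4 are not read as an excess. The list median was 0.15 on the log2 scale beside 0.05 over all genes tested. In CD8+ over CD4+ Tconv cells 0 of the 13 were past either limit. Of the Sin3 and CtBP list 0 of 3 tested genes were past a limit in either comparison, and of the cereblon ligase list only Crbn, the cereblon gene itself, was past it, at 0.600 on 4 UMIs in Foxp3+ cells. Among 18 other lymphoid transcription factors tested, Maf (1.95) and Gata3 (2.26) were higher in Foxp3+ cells. Tcf7 (0.275), Lef1 (0.436), Bach2 (0.149), Foxp1 (0.364) and Satb1 (0.593), which are factors of resting or naive T cells, were lower, each in 3 of 3 libraries. Naive-like clusters held 127 of the 151 CD4+ Tconv cells of library 2. Of the 97 Foxp3+ cells, 4 lay in the naive-like cluster 1 and 7 in cluster 2. The part of this difference in the ratios was not tested. In CD8+ cells Eomes, a factor of effector and memory CD8+ cells, was higher (4.83), and Runx1 (0.555), Gata3 (0.307) and Maf (0.184) were lower than in CD4+ Tconv cells, each in 6 of 6 libraries.

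To see what else marked Helios transcripts in cells without a Foxp3 UMI, CD8+ cells with an Ikzf2 UMI were compared with CD8+ cells without one, matched by library and depth quartile. Clusters were not matched, and the gate held 201 cells of the Th2-like cluster 4, 187 of cluster 3 and 144 of cluster 5. No doublet caller was run, and the part of doublets or wrongly gated cells in the ratios was not tested. Genes of the Treg list stood higher. Of 17 tested, 12 were past the ratio of 1.5 and 0 below 1/1.5, with a list median of 0.75 on the log2 scale beside 0.04 over all genes. Of all 9961 genes tested, 7.45% had a ratio of at least 1.5 and 7.28% of at most 1/1.5. The 405 positive cells had a median depth of 3012 UMIs and the 4092 others of 1636.5 before matching. The largest ratios were those of Il10, which encodes a suppressive cytokine (4.24, on 12 UMIs in 7 cells), Ikzf4 (2.60, on 9 UMIs in 8 cells) and the chemokine receptor Ccr8 (2.09). All 3 receptors of the TNF family on the list were higher in 6 of 6 libraries, with ratios from 1.52 to 1.85. Tnfrsf4, which encodes OX40, had 275 UMIs against 148 expected, Tnfrsf9, which encodes 4-1BB, 307 against 182, and Tnfrsf18, which encodes GITR, 343 against 226. By library the Tnfrsf4 UMIs were 41, 12, 23, 45, 80 and 74 beside 11.3, 0.495, 10.1, 37.2, 39.8 and 49.3 expected, so the gap was narrowest in library 4. Il2ra, the high-affinity IL-2 receptor chain, had 187 UMIs against 107, and Nrp1, Itgae, Izumo1r, Nt5e and Il1rl1 had ratios from 1.62 to 1.83. Activated CD8+ T cells are known to express several of these genes. Counted in cells rather than UMIs, 103 were Tnfrsf4-positive against 57.1 expected and 92 were Il2ra-positive against 60.7, so both contrasts remained.

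Other lists moved less evenly in these CD8+ cells. In the list of NK receptors and innate-like genes 6 of 12 were past the ratio of 1.5, with a median of 0.50 on the log2 scale. Klra1 (6.004), Klra7 (4.61), Fcer1g (2.96) and Klrb1c (2.94) led it, on 7, 11, 18 and 17 cells, and Klra3 and Xcl1 were the others. They leaned on 1 library, because library 4 held 12 of the 16 Klra1 UMIs and 19 of the 26 Klra7 UMIs, and the list median was 0.06 without it and 0.19 without library 1. Of the 5 Th2 genes tested 3 were past the limit. Areg, which encodes amphiregulin, had 121 UMIs against 27.9, in 21 cells of which 1 held 33 UMIs, and Il13 had 22 against 8.14 in 3 cells, 17 of them in library 4. The inhibitory receptor Pdcd1 (1.60) and the exhaustion factor Tox (1.64, higher in 6 of 6 libraries) were past the limit among 7 genes of that list. Maf (1.65) was the only other lymphoid factor of 21 to be so, and Mki67 (1.58) the only one of 7 proliferation genes. No gene of the naive list (8 tested) or of the cytotoxic list (10 tested) was past a limit, with medians of -0.005 and -0.25 on the log2 scale. In the TCR-induced list Egr2 was higher (1.98), in the cereblon list Cul4a was higher (1.79), and in the myeloid list Itgam was lower (0.663, on 4 UMIs). In the NuRD list 0 of 13 were past a limit, in the Sin3 and CtBP list 0 of 3, and in the B cell list 0 of 1. Among genes with 50 UMIs that went against the pool in no library, the highest ratios were those of Klrb1c, Cd83 (51 UMIs against 19.0), Ier5l, Zfp973, Ticam1, Tlnrd1, Gphn, Gfm2, Vps37a and Gzmf. The lowest were those of Depdc5, Trbv24, Ube3b, Trav16d-dv11 and Sac3d1, each with 1 to 3 UMIs in the positive cells.

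In CD4+ Tconv cells the Ikzf2 UMI marked another mix of genes. This gate may hold Treg cells in which no Foxp3 transcript was captured, and their part in the ratios was not tested. The 127 positive cells had a median depth of 2249 UMIs and the 1078 others of 1574, and of 7699 genes tested 13.6% had a ratio of at least 1.5 and 11.6% of at most 1/1.5. Proliferation genes stood higher, with 5 of 7 past the limit and a list median of 0.62 on the log2 scale beside 0.05 over all genes. Mki67 had 81 UMIs against 36.3, in 21 cells against 12.97 expected, and Birc5, Top2a, Ccnb2 and Cdk1 had ratios from 1.52 to 2.03. Aurkb, a mitotic kinase, had the highest ratio with 1 direction in every library, at 3.09 on 22 UMIs in 14 cells. It was followed by Kif23, Them6, Rps19bp1, Mki67, Atad1, Arhgap26, Atxn1, Hist1h1e and Ccna2, of which Kif23, Mki67 and Ccna2 also serve cell division. Most of these UMIs came from libraries 4 and 5, which held 30 and 42 of the 81 Mki67 UMIs. With an Ikzf1 UMI, 2 of the 7 proliferation genes, Birc5 and Cdk1, were also higher and 0 lower, with a list median of 0.28. There 9.38% of all genes were above the limit. CD4+ Tconv cells of the proliferating-like cluster had a median depth of 4214 UMIs against 1622 in the whole gate. The part of depth left within quartiles was not tested.

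Genes of type 2 immunity stood lower in the same CD4+ Tconv cells. Of 6 Th2 genes tested 4 were past the limit downward and 0 upward, with a median of -1.32. Il13 had 4 UMIs against 64.2, Il5 4 against 24.1, Il4 17 against 52.6 and Il1rl1, the IL-33 receptor, 14 against 29.1. These cytokines come from few cells with many UMIs each, and in cells the gap was narrower, at 3 Il13-positive cells against 9.94 expected and 8 Il4-positive cells against 13.5. Hdc, which encodes histidine decarboxylase, was lowest of all genes with 50 UMIs, at 1 UMI against 23.6, followed by Il13, Trbv23, Kctd5 and Il5. A gap in UMIs was also seen with Ikzf1, because CD4+ Tconv cells with an Ikzf1 UMI had fewer Il4, Il5, Il13 and Areg UMIs than expected. Counted in cells, however, Il4 and Areg were not fewer with Ikzf1, as given below.

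The Treg list had no common direction in CD4+ Tconv cells with Ikzf2. Of 16 genes 3 were higher, namely Klrg1 (2.999), Nt5e (1.80) and Ctla4 (1.69), and 3 lower, namely Il10 (0.323), Itgae (0.452) and Il1rl1 (0.489), with a median of 0.17. It was -0.17 without library 1 and 0.35 without library 4. Library 1 held much of what was higher, with 55 Ctla4 UMIs against 17.5, 28 Klrg1 UMIs against 1.80 and 18 Il2ra UMIs against 3.65 in 24 positive cells. In library 4, with 44 positive cells, these genes had 47 against 43.0, 2 against 5.56 and 12 against 27.1. The libraries thus differed in direction, which was not tested. Library 1 also held most of the Foxp3+ cells, and the part of Treg cells without a captured Foxp3 transcript was not tested either. Xcl1 shows how 1 cell can carry a ratio, since 30 of its 36 UMIs, against 5.11 expected, came from a single cell. Klrk1 was the other NK gene past the limit among 4 tested, Gzma among 7 cytotoxic genes had 122 UMIs of which 44 lay in 1 cell, and Lag3 (0.542) was the one inhibitory receptor of 6. Of the naive list Satb1 (0.665) was lower, and of the other lymphoid factors Bcl11b (0.498) and Bach2 (0.337) were lower and Id3 (1.89) higher. Among family partners, where 2 of 13 is near the 13.6% of all genes, Hdac1 (1.63, higher in 5 of 5 libraries) and Mta2 (1.60) of 13 NuRD genes and Ddb1 (1.55) and Cul4b (1.64) of 5 cereblon ligase genes were higher. In the TCR-induced list Myc (1.58) was higher and Egr1 (0.648) lower, and Il2 (3.04) was higher on 14 UMIs in 5 cells. Of the Sin3 and CtBP list 0 of 3 were past a limit, and no myeloid, B cell, stromal or melanoma gene reached 20 UMIs.

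**Figure D4:**
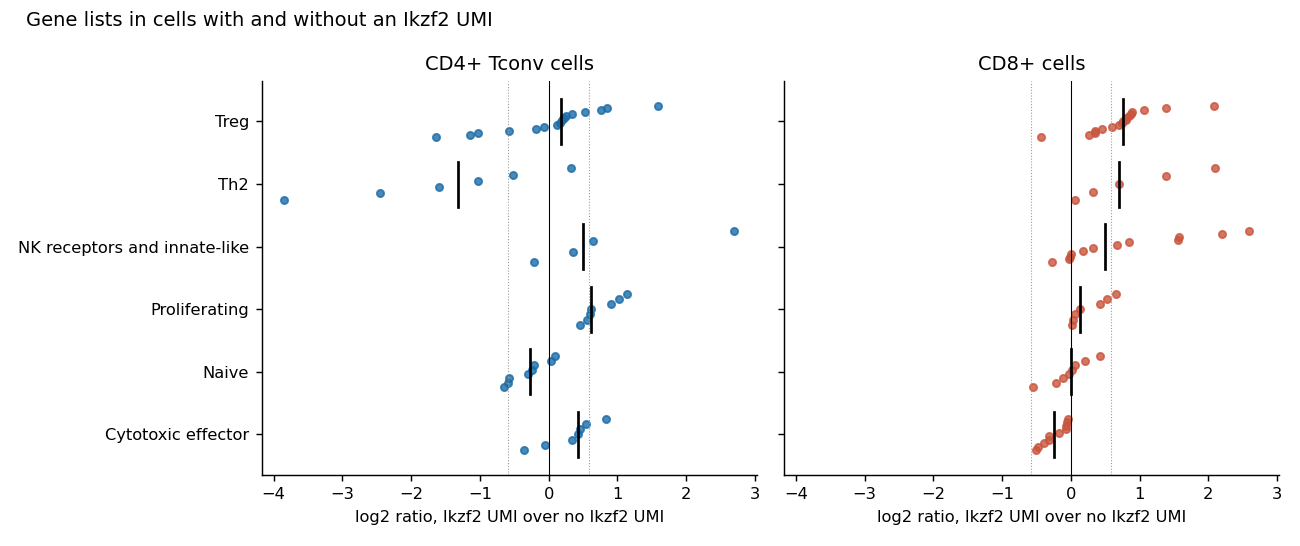
Log2 ratio (horizontal axes) of each tested gene of 6 lists in cells with over cells without an Ikzf2 UMI, matched by library and depth, in CD4+ Tconv cells (left) and CD8+ cells (right). Points are genes, black bars list medians, and dotted lines ratios of 1.5 and 1/1.5. The Treg median is 0.75 in CD8+ and 0.17 in CD4+ Tconv cells, and the Th2 median 0.70 and -1.32. The Th2 medians rest on 5 tested genes in CD8+ and 6 in CD4+ Tconv cells, and several of these genes had their UMIs in few cells.

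The same comparison for Aiolos transcripts moved fewer genes past the limits in CD8+ cells, on a larger number of positive cells. Of 9980 genes tested in 851 CD8+ cells with and 3646 without an Ikzf3 UMI, 4.85% had a ratio of at least 1.5 and 4.76% of at most 1/1.5. Tox (1.75), Il10 (2.55), Izumo1r (1.76), Klra3 (2.47) and Il4 (2.21) were the list genes above, where 54 of the 71 Il4 UMIs came from 1 cell, and Il13 (0.396) and Egr2 (0.532) those below. Only 2 of 17 Treg genes were past the limit, with a median of 0.03 against the 0.75 found for Ikzf2. Ctsl, Dancr, Mdc1 and Paqr4 were among the leading genes of 1 direction, with ratios from 2.01 to 2.18. In CD4+ Tconv cells, with 136 positive and 1069 negative cells, 12.1% of 7674 genes were above and 13% below. There Gzmk, a granzyme of memory-like cells, was 3.23 times higher in 4 of 4 libraries (46 UMIs against 13.9, in 15 cells), and the repressor Zeb2 2.54 times. Lag3 (2.30), Pdcd1 (1.68) and Ifng (1.72) were also higher, and Il10 had 23 UMIs against 2.27, of which 13 lay in 1 cell. Proliferation genes went the other way than with Ikzf2, since 4 of 7 were lower, namely Stmn1 (0.427), Birc5 (0.499), Mki67 (0.518) and Ccnb2 (0.664), with a median of -0.59. The difference between the medians for Ikzf2 and Ikzf3 was not tested.

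For Ikaros transcripts, of 9980 genes tested in 1039 positive and 3458 negative cells, 5.06% were above and 3.84% below. Here 5 of 12 NK and innate-like genes were lower, namely Klra7 (0.201), Klra1 (0.277), Klra3 (0.469), Tyrobp (0.576) and Klrb1c (0.594), as were Areg (0.274), Il4 (0.463) and Il13 (0.480) among 5 Th2 genes. In cells the gaps were narrower, at 7 Klra7-positive cells against 10.4 expected, 19 Areg-positive against 22.2, 16 Il4-positive against 16.9 and 2 Il13-positive against 4.86. Ccr8 (1.68) and Egr2 (1.75) were higher. In CD4+ Tconv cells, with 251 positive and 954 negative cells, 9.38% of 7687 genes were above and 7.91% below. Of 6 Th2 genes 4 were lower, namely Il5 (0.315), Il13 (0.337), Areg (0.532) and Il4 (0.604), with a median of -0.82. Counted in cells, Il4 (34 against 31.4 expected) and Areg (37 against 35.0) were not fewer, whereas Il13 (15 against 28.7) was. The Treg genes Tnfrsf9 (0.541), Klrg1 (0.561) and Il2ra (0.624) were lower as well, and Gzmk (4.61) was higher. Xcl1 had 50 UMIs against 3.06 in 14 cells and was higher in 6 of 6 libraries, although 30 of the UMIs came from 1 cell.

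The members were then counted together within cells, against the number expected if they were independent within library and depth quartile. Ikzf2 went with Foxp3 most closely, in 59 cells against 16.2 expected, a ratio of 3.64 (2.77 to 4.70), while Ikzf1 and Ikzf3 had ratios with Foxp3 of 0.936 (0.572 to 1.45) and 1.10 (0.699 to 1.65). Among the members themselves the excess was small. Ikzf1 and Ikzf3 shared 431 cells against 379 expected (1.14, 1.03 to 1.25), Ikzf2 and Ikzf3 shared 249 against 210 (1.18, 1.04 to 1.34), and Ikzf1 and Ikzf2 shared 279 against 264 (1.06, 0.936 to 1.19). All 3 were seen in 80 cells, at least 1 in 4142 and none in 8676. Ikzf2 and Ikzf4 shared 28 cells against 13.2 (2.12, 1.41 to 3.06), with ratios of 2.25 (0.972 to 4.44) within CD4+ Tconv cells and 2.53 (1.09 to 4.98) within CD8+ cells, on 8 cells each. Over all cells, Foxp3+ cells included, Ikzf2 was seen with Il2ra in 237 cells against 158 (interval of the ratio 1.31 to 1.70). It was seen with Ccr8 in 117 against 81.1 (1.44, 1.19 to 1.73) and with Mki67 in 158 against 120 (1.31, 1.12 to 1.54). Within CD4+ Tconv cells these ratios were 1.25 (0.856 to 1.77), 1.16 (0.707 to 1.79) and 1.45 (0.896 to 2.21), and each interval included 1. Within CD8+ cells they were 1.41 (1.13 to 1.72), 1.72 (1.14 to 2.48) and 1.31 (1.04 to 1.61). With Gata3, a Th2 factor, the Ikzf2 ratio was 1.35 (1.11 to 1.63) in CD8+ cells and 0.914 (0.659 to 1.24) in CD4+ Tconv cells. With Tcf7 it was 0.925 (0.797 to 1.07) over all cells. Depth matters to these ratios, since matching by library alone gave 6.01 for Ikzf2 with Foxp3 and 1.27 for Ikzf1 with Ikzf2, 1.35 for Ikzf1 with Ikzf3 and 1.502 for Ikzf2 with Ikzf3.

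Levels over the 12 sums of CD4+ Tconv and CD8+ cells by library were used to find the genes whose pattern was most like that of each member, among 5572 genes with at least 200 UMIs. The sums share libraries and differ in depth, so the correlations are descriptions. Ikzf2 and Ikzf3 resembled each other (Pearson r = 0.732, Spearman rho = 0.860), and Ikzf1 resembled neither, with r = -0.211 and 0.199. Closest to Ikzf2 were Tceal9 (r = 0.910), Atxn7 (0.896), Pds5a (0.896), Xaf1 (0.892) and the lectin-like receptor gene Klrg1 (0.888). Klrg1 had 1.31, 0.112, 1.13, 0.272, 0.186 and 0.166 UMIs per 10000 in CD4+ Tconv cells of libraries 1 to 6, which is again high in libraries 1 and 3. Closest to Ikzf3 were Igkc (0.959), Itga4 (0.930), Ifi209 (0.921), Trim30a (0.907) and Mast3 (0.905), and closest to Ikzf1 were Prkcb (0.874), mt-Co2 (0.834), B4galt7 (0.822), mt-Nd5 (0.819) and mt-Nd1 (0.787). Igkc is an immunoglobulin gene, and its levels were at most 0.981 UMIs per 10000, with 0 in CD4+ Tconv cells of libraries 2 and 6.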

How the data were processed

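Single-cell RNA sequencing with 5′ chemistry was performed by the study on sorted tumor T cells. The authors mapped reads to mm10 per their methods, merged libraries with Cell Ranger and filtered cells in Seurat. The labels name mm9 instead, and the annotation is not given in the sources used here. The deposited table holds UMI counts, whole numbers that the authors did not normalize. Per the labels 3 samples were PBS and 3 DTx, but cell names could not be matched to them.

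Counts were summed by gate and library with Python 3.11.15 and scipy 1.17.1, and given per 10000 UMIs with exact Poisson intervals, shares with Clopper-Pearson intervals. For ratios, the UMIs seen were set against those predicted by the reference cells of the same library, and, for cells with and without a member's UMI, of the same depth quartile. Genes needed 20 UMIs over both, and those with ratios of at least 1.5 or at most 1/1.5 were counted. Member ratios carry exact conditional intervals in single libraries and log-normal intervals in the pool, which replaces the planned Poisson interval of the observed count. Ratios of other genes have 0.5 UMI added to both numbers. Clusters were made in Seurat 5.3.0 (2000 variable genes, 6 components, resolution 0.5) and named by markers. No doublet caller was run, 76 barcodes occurred in 2 libraries, and no library pair was alike within sampling noise (chi-square per degree of freedom at least 2.90). Sequences are from the GENCODE annotation of GRCm38. Scripts were tested on simulated data.

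Members and lists were chosen with earlier results of these data known. Named genes are the members, per list up to 4 of largest ratio, per member the 5 most alike, and the 10 highest and 5 lowest genes of 1 direction over libraries at 50 UMIs. Others were named after their values were seen, and some genes the rule selects are not reported here.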

Additional observations from a re-analysis of the deposited data

How the results depend on the processing

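No paired analysis was possible because the columns could not be matched to the numbered samples and no result came from a test. Results were recomputed without matching by library, with other gates, depths and filters, and without each library. The settings that left out cluster 7 or Mki67- or Top2a-positive cells of the Ikzf2 comparisons, or that counted cells in place of UMIs, were chosen after seeing the data. Not every direction held. Counted in cells, Il4 and Areg were no longer lower in CD4+ Tconv cells with an Ikzf1 UMI. The Treg list median in CD4+ Tconv cells with Ikzf2 changed sign when library 1 was left out. The Ikzf3 ratio of Foxp3+ over CD4+ Tconv cells fell on either side of 1. Of the recomputed main values 122 kept within their limits and 24 moved, and of the others 275 and 73. Foxp3+ over CD4+ Tconv ratios without matching by library were 7.91 for Ikzf2 and 2.02 for Ikzf3, and in gates of 2 UMIs 7.96 and 0.241. Leaving out 1 library gave 0.398 to 0.981 for Ikzf1, 3.13 to 5.59 for Ikzf2 and 0.604 to 1.14 for Ikzf3. CD8+ over CD4+ Tconv ratios ran from 1.10 to 1.21, from 0.744 to 0.982 and from 1.47 to 1.99 in the same order. The share with Ikzf2 fell with depth, to 5.71% and 3.68% of CD4+ Tconv cells at 1000 and 500 UMIs, and to 7.35%, 4.58% and 2.34% of CD8+ cells at 1500, 1000 and 500. Without 1 library it was 9.22% to 11.3% and 8.08% to 10.6%. Genes above and below in CD4+ Tconv cells with Ikzf2, 1046 and 894, numbered 456 and 365 at 50 UMIs, since fewer were tested. With 2 Ikzf2 UMIs 1281 were above and 1368 below, and without 1 library 995 to 1051 above and 855 to 950 below. In CD8+ cells 742 and 725 became 437 and 374 at 50 UMIs, 1350 and 1315 with 2 Ikzf2 UMIs, and 717 to 917 and 683 to 874 without 1 library. The cause of the changes with 2 Ikzf2 UMIs was not tested. The Treg median in CD8+ cells was 0.61 to 0.85 over all alternatives, and counting cells moved the Th2 median in CD4+ Tconv cells from -1.32 to -0.47. Depth limits all shares, since most cells hold no UMI of a member.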
